A study of Mus musculus with 2 samples.

Results

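A set of 9 genes of the retinoic acid pathway were followed on microarrays of embryonic mouse ureters that were cultured with or without an inhibitor of WNT secretion. The members were taken by name, as every probe on the array annotated to Aldh1a1, Aldh1a2, Aldh1a3, Rarb, Stra6, Cyp26a1, Cyp26b1, Crabp1 or Crabp2. This gave 11 probes for 9 genes, of 39429 probes on the array. Of these, 10 probes gave a signal well above background and 1 probe, the most upstream of 3 for Rarb, did not. The probes were selected by gene name.

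Wild-type NMRI embryos at E11.5, of undetermined sex, provided the ureters. Explants were kept for 18 h on Transwell membranes in a defined medium that lists no serum, with 10 µM IWP-2 or with the solvent DMSO as control. IWP-2 blocks Porcupine, the enzyme that adds the lipid that WNT proteins need for secretion. RNA came from pools of ureters, and each of 2 arrays carried a treated and a control pool labelled with different dyes, which were swapped on replicate 2. An individual embryo can therefore not be followed, and pool, dye orientation and array cannot be told apart. Each explant held the ureteric epithelium, the surrounding mesenchyme and other cells, so fewer cells of a type and less RNA per cell cannot be told apart.

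Retinoic acid is made from vitamin A in several steps. Retinol is taken up into cells through membrane receptors such as STRA6 and oxidised to retinaldehyde, which the ALDH1A enzymes convert irreversibly to retinoic acid. CRABP proteins carry retinoic acid inside the cell, RAR and RXR receptors bind it and act on response elements in DNA, and CYP26 enzymes break it down. Rarb and Cyp26a1 are classical direct targets of the receptors. The study also treats Stra6 as a gene that responds to retinoic acid, so Stra6 is both an uptake gene and a readout of the pathway. In the developing urinary tract Aldh1a2 is a mesenchymal gene, whereas Aldh1a1 and Aldh1a3 are epithelial.

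In each channel the share of spots well above background was 68.6% to 70.7%, and no spot of a gene probe was saturated. Changes are given as log2 of IWP-2 over control after background correction and loess normalization, and levels as the processed intensity of the scanner software, which can be compared between channels for a probe but not between probes. For Axin2, a widely used target of canonical WNT signaling that belongs to no list used here, the change was -1.38 on replicate 1 and -0.64 on replicate 2, with an adjusted p of 0.0502 in limma. Among 20119 genes tested with 1 probe each, 232 (1.15%) were lower and 123 (0.611%) were higher at an adjusted p under 0.05.

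Of the 9 members, Stra6 was lower in IWP-2-treated ureters, and no other member passed the test in either direction, 0 of the other 8 also at an unadjusted p under 0.05. The vitamin A receptor gene was at close to 49% of its control intensity on each array. The 3 genes for retinoic acid synthesis, the 2 for carriers, the receptor gene Rarb and the 2 for degradation all had 95% intervals that included no change. With 1 member of 9 lower and 0 higher, against 1.15% and 0.611% of all genes, the result rests on a single gene.

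**Figure D1:**
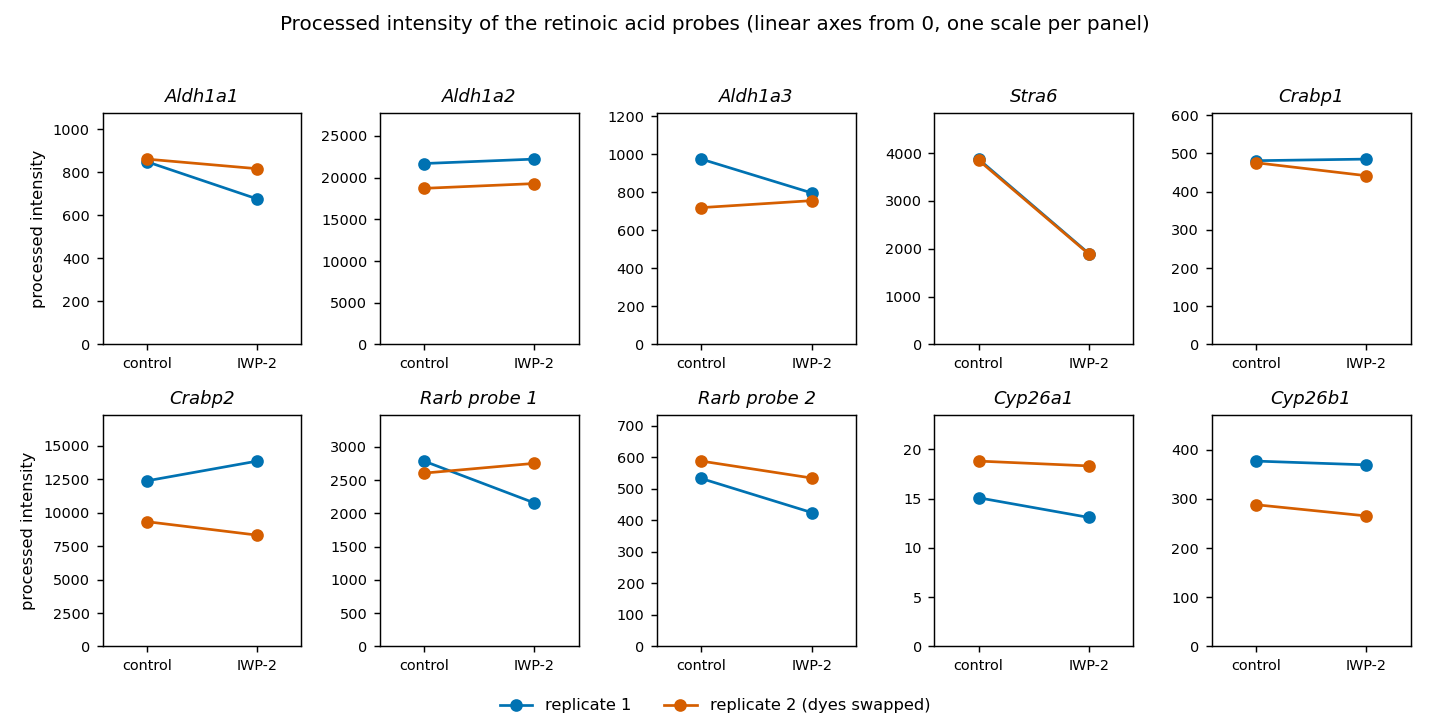
Processed intensity of the 10 retinoic acid probes in control and IWP-2-treated ureters, on linear axes that start at 0 with a separate scale for each probe; each line joins the control and treated pools of an array. Both lines for Stra6 fall, from 3874 to 1898 on replicate 1 and from 3850 to 1886 on replicate 2, and those for Aldh1a2 are almost flat.

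Stra6, which encodes the membrane receptor for retinol bound to its plasma carrier, had a processed intensity of 3874 in the control and 1898 in the IWP-2-treated pool of replicate 1. On replicate 2 the values were 3850 in the control and 1886 in the treated pool. Both treated pools were thus below both control pools, with a treated level of 49.0% of control on either array. After normalization the log2 change was -1.09 on replicate 1 and -1.003 on replicate 2. The mean was -1.05 ± 0.065 (SD, n = 2 arrays), with an SE of 0.0991 and a 95% interval from -1.29 to -0.81. This amounts to a 2.07-fold lower level, and the interval spans 41.0% to 57.0% of control. The adjusted p of the limma fit was 0.00834 over all genes and 0.00429 over all 26947 probes kept, of which 1.23% were lower and 0.824% higher. Ordered from the lowest mean change, Stra6 had rank 76 of 20119 genes.

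The 4 spots of the Stra6 probe lay between -1.17 and -0.997 on replicate 1 and between -1.07 and -0.96 on replicate 2, so the ranges of the 2 arrays overlapped. The call depended on the processing. It held under 9 of 12 alternatives, but the adjusted p was 0.396 on the processed signals without further normalization, 0.102 with median centring in place of loess, and 0.197 in a fit of separate channels with a dye term. The size of the change stayed between -1.08 and -1.03 in all 12.

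With a filter after the cut-offs used in the study, a fold change of 2 or more on each array with the brighter channel at an intensity of 100 or above, Stra6 was again the sole member retained. Of 14549 genes bright enough, 50 (0.344%) were lower and 11 (0.0756%) were higher. The filter was applied here to the brightest probe of each gene, on processed signals averaged over spots. Its counts differ from those that the study gives for this stage. The fold of Stra6 was 2.04 on replicate 1 and 2.04 on replicate 2, just above the cut-off. Cyp26a1 was the only member too dim for this filter.

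The Stra6 probe lies at chr9:58001701-58001760 of mm9, on the plus strand, and is annotated to transcript variant 1. The last 30 bases of the probe are shown because this probe carries the result, and capitals mark the letters AATAAA, which are those of a polyadenylation signal; the position of the probe within the transcript was not looked up:
Stra6 probe, chr9:58001731-58001760 (mm9, plus strand): gtgctctctgtAATAAAtgtgcctctgagg

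Genes next to Stra6 on chromosome 9, in the RefSeq order and picked for position alone after the data had been seen, did not pass the test. Islr on the following side was at 0.10 (adjusted p = 0.850). Islr2, the next gene after Islr, was at 0.32 (adjusted p = 0.324). On the preceding side Ccdc33 was at -0.07 (adjusted p = 0.920), but it was very dim, with intensities of 6.68 to 8.50, so a change would hardly show. Cyp11a1 was not well above background.

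Cell type markers moved as well, and their part in the Stra6 result was not tested. Among 6 markers of the ureteric mesenchyme, Tbx18 was lower at -1.03 (limma, adjusted p = 0.0126) and Tcf21 at -0.77 (adjusted p = 0.0247). The other 4 did not pass and ran from -0.19 for Pdgfra to 0.50 for Pdgfrb. The study states that Tbx18 expression is lost in the ureteric mesenchyme of mutants without mesenchymal Ctnnb1, the beta-catenin gene. For Tbx18, lower expression per cell and fewer mesenchymal cells can therefore not be told apart. On replicate 1 the 6 mesenchymal markers had a median of -0.34, and on replicate 2 one of 0.08. Their summed processed intensity was 54732 in treated against 57654 in control pools on replicate 1 and 57008 against 51242 on replicate 2. None of 7 epithelial markers passed, with medians of 0.12 and 0.35 on the arrays. Of 7 endothelial markers Cldn5 (0.65, adjusted p = 0.0347) and Kdr (0.74, adjusted p = 0.0359) were higher and all 7 were above 0 on both arrays, with medians of 0.35 and 0.62. Of 5 macrophage markers on the array Adgre1 (0.92, adjusted p = 0.0409) and Marco (2.11, adjusted p = 0.000527) were higher, with medians of 0.35 and 0.47. Meox1 was higher among 7 markers of the nephrogenic mesenchyme (0.96, adjusted p = 0.0286), a list with medians in opposite directions, 0.22 on replicate 1 and -0.38 on replicate 2. No marker of the nephric duct and bud tip (6 tested), renal stroma (4), mesothelium (6), red cells (6) or neurons and glia (5) passed. The medians on replicates 1 and 2 were 0.09 and -0.14 for the duct and tip, 0.50 and -0.24 for the stroma, 0.01 and 0.25 for the mesothelium, 0.14 and 0.60 for red cells and 0.46 and 0.34 for neurons and glia. The marker calls depended on the processing: of 12 alternatives each, the call held under 8 for Tbx18, 7 for Tcf21, 6 for Meox1, 5 for Cldn5, 5 for Adgre1, 4 for Kdr and 10 for Marco. For Kdr the size also depended on the probe, as the mean over its kept probes was 0.47 (limma, adjusted p = 0.0557).

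The enzymes of retinoic acid synthesis showed no change that passed the test. Aldh1a2, which makes most retinoic acid in the embryo, had a processed intensity of 21683 in the control and 22214 in the treated pool of replicate 1, and of 18709 and 19280 on replicate 2. Treated pools were slightly above their own controls on both arrays, by 0.08 and 0.02 on the log2 scale, and the difference between the arrays was larger than that between treatments. The mean was 0.05, with a 95% interval of 87.8% to 122% of control and an adjusted p of 0.954. A fall of the size seen for Stra6 lies outside this interval.

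Aldh1a1, the epithelial enzyme also known from the eye and other tissues, was at 849 in the control and 676 in the treated pool of replicate 1, and at 861 and 816 on replicate 2. Both treated values were below both control values, but the log2 change of -0.36 on replicate 1 was far from the -0.05 on replicate 2. Its mean of -0.20 ± 0.22 (SD, n = 2) had an interval of 71.9% to 105% of control and did not pass (limma, adjusted p = 0.582). Aldh1a7, a close paralogue of Aldh1a1 outside the lists, had a change of 0.09 on replicate 1 and 0.49 on replicate 2 and did not pass either (adjusted p = 0.385).

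Aldh1a3, the third enzyme of the family, moved in opposite directions on the arrays. Its intensity was 975 in the control and 797 in the treated pool of replicate 1, against 720 and 757 on replicate 2. The log2 change was -0.26 and 0.07, and the mean of -0.10 had an interval of 77.0% to 114% of control (adjusted p = 0.887).

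**Figure D2:**
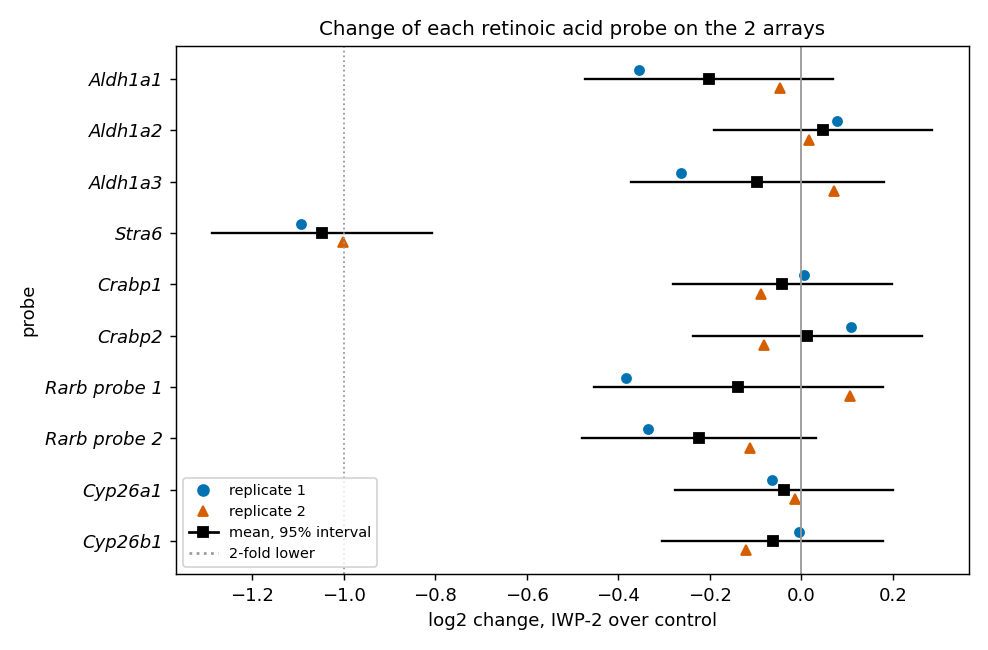
Log2 change of IWP-2 over control for each of the 10 probes; circles and triangles are replicates 1 and 2, squares the mean, bars the 95% interval of the limma fit, and the dotted line a 2-fold lower level. The interval of Stra6, -1.29 to -0.81, is the only one that leaves out 0.

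Both intracellular carriers stayed near their control level. Crabp1 had an intensity of 481 in the control and 485 in the treated pool of replicate 1, and of 476 and 442 on replicate 2. Its mean change was -0.04 (82.4% to 115% of control, adjusted p = 0.964). Crabp2, which hands retinoic acid to the nuclear receptors, was at 12385 in the control and 13865 in the treated pool on replicate 1, and at 9334 and 8327 on replicate 2. The arrays thus pointed in opposite directions, by 0.11 and -0.08, and the mean was 0.01 (84.8% to 120% of control, adjusted p = 0.993).

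Rarb, which encodes the beta receptor for retinoic acid and responds itself to the ligand, was measured with 3 probes. They are shown because they differ in position, with the letters of a polyadenylation signal in capitals and the last 30 bases of each given:
Rarb probe 1, chr14:17263367-17263396 (mm9, minus strand): ttccatggagtctcctggcaaagAATAAAt
Rarb probe 2, chr14:17264648-17264677 (mm9, minus strand): agttcaagtgggaatatagcagagcacagt
Rarb probe 3, chr14:17651424-17651453 (mm9, minus strand): ttctgtgtgattctggacctgtagtaatgt

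Probe 1 and probe 2 lie close together, and probe 3 lies far upstream of them and is annotated to transcript variant beta1. Probe 3 was not well above background in any spot of any channel, with intensities of 1.92 to 3.01, so no change was computed for it. Probe 1 was at 2786 in the control and 2157 in the treated pool on replicate 1, but at 2605 and 2752 on replicate 2. Probe 2 was at 532 and 424 on replicate 1 and at 588 and 534 on replicate 2, with the control first. Both probes were therefore lower with IWP-2 on replicate 1, by -0.38 and -0.34, while on replicate 2 probe 1 stood at 0.11 and probe 2 at -0.11.

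The mean change of Rarb was -0.14 ± 0.35 (SD, n = 2) with probe 1, an interval of 72.4% to 114% of control and an adjusted p of 0.841. Probe 2 gave a mean of -0.22 and an adjusted p of 0.486 over all probes. The arrays disagreed by more than the spots within them. The 4 spots of probe 1 ran from -0.41 to -0.36 on replicate 1 and from 0.05 to 0.15 on replicate 2, without overlap. Spot spread therefore understated the error of this gene, and a moderate fall of Rarb was not separable from no change with these 2 arrays.

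**Figure D3:**
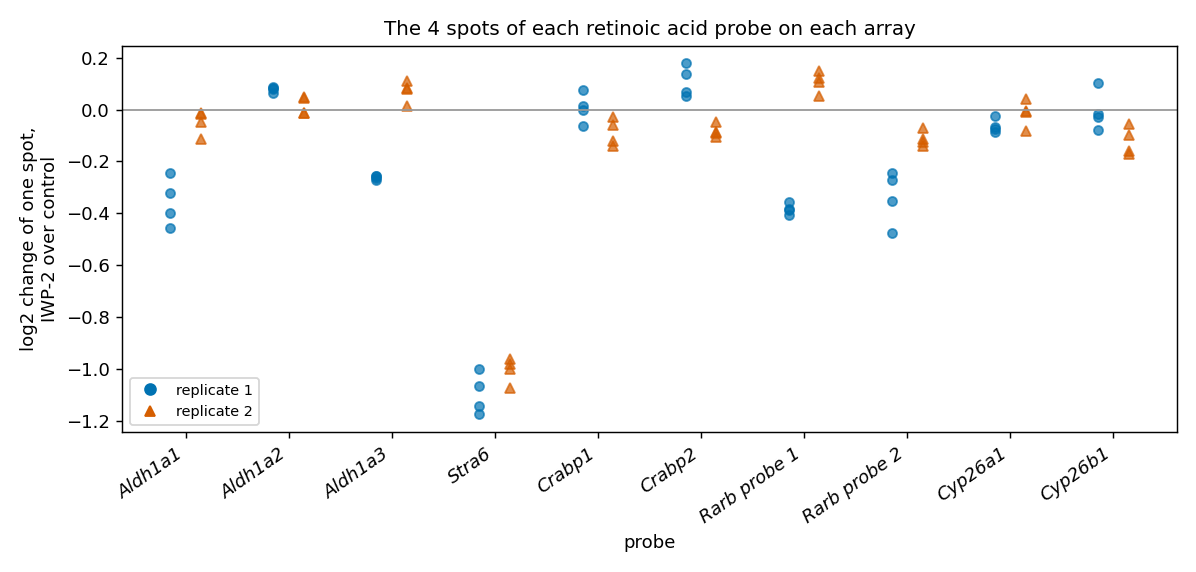
Log2 change of each of the 4 spots per probe on replicate 1 (circles) and replicate 2 (triangles). For Aldh1a1, Aldh1a2, Aldh1a3, Crabp2 and both Rarb probes the spots of the 2 arrays do not overlap, and for Stra6 all 8 spots lie between -1.17 and -0.96.

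The degrading enzymes did not pass the test either. Cyp26b1 had an intensity of 377 in the control and 369 in the treated pool of replicate 1, and of 288 and 265 on replicate 2, with a mean change of -0.06 (81.0% to 113% of control, adjusted p = 0.928). Cyp26a1, the most retinoic acid-sensitive gene of the family, was very dim, at 15.1 in the control and 13.1 in the treated pool on replicate 1 and at 18.8 and 18.3 on replicate 2. Its mean change was -0.04 (adjusted p = 0.967). As an offset of 50 was added to every signal before the logarithm, the change of so dim a probe is drawn toward 0, and a fall of Cyp26a1 was not measurable at this signal.

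Response elements were searched in the RefSeq promoter windows, which cover 250 bases before to 50 bases after a start. Windows were listed for 7 of the 9 members, 11 windows in all. A DR5 element, formed by 2 receptor binding repeats in the same direction with 5 bases between them, was searched on both strands and occurred in 0.323% of 32851 windows. It was found in the windows of Rarb and Cyp26a1, and these stretches are shown because they hold the only matches among the members' windows. Neither gene passed the test, but a fall of Cyp26a1 was not measurable and a moderate fall of Rarb was not separable from no change. Capitals mark the element, and each stretch holds the 120 bases before the start:
Rarb, chr14:16575477-16575596 (GRCm38.p6, minus strand): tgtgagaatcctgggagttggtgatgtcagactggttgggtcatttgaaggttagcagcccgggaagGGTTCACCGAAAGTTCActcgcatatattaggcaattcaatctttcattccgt
Cyp26a1, chr19:37697688-37697807 (GRCm38.p6, plus strand): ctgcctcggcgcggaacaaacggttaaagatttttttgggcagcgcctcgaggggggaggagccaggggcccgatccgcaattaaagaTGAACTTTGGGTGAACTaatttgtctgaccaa

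The element of Rarb spans positions -53 to -37 from the start, and that of Cyp26a1, on the other strand, -32 to -16. A DR2 element, with 2 bases between the repeats, was in 0.472% of all windows and in none of the members' windows. None of the 4 windows of Stra6 held a DR5 or DR2 match, which says only that these letters are not in them. The TCF/LEF motif CTTTGA, the sequence bound by the DNA partners of beta-catenin, was in 16.0% of all windows on either strand. It occurred in 2 of the 11 windows, a share close to that of all windows. These were a window of Aldh1a1 (3 matches) and a window of Stra6, a gene with 4 windows. Binding of beta-catenin or its partners to either window was not tested here. The study searched public binding data from various mouse tissues for peaks near its changed genes, and those data were not used here. The Stra6 match is shown with the 180 bases before the start, and the capitals mark the motif as read on the other strand:
Stra6, chr9:58129169-58129348 (GRCm38.p6, plus strand): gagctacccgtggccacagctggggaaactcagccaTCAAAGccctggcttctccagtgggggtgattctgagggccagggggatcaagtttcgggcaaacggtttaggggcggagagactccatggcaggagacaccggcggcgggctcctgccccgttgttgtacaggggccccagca

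A further 58 names from 5 lists of the pathway were on the array, 47 of them bright enough to test, and none passed in the limma fit with 1 probe per gene. At an unadjusted p under 0.05, 4 were lower and 6 were higher, where 954 and 1745 of all 20119 genes were. The median change over these 47 genes was -0.03 on replicate 1 and -0.02 on replicate 2, beside -0.01 and 0.02 over all genes, and the means of single genes ran from -0.57 to 0.64. Both ends were genes known to respond to retinoic acid and are named for their values: Tgm5, a transglutaminase gene, was lowest at -0.57 (adjusted p = 0.123) and Tgm2, of the same family, was highest at 0.64 (adjusted p = 0.127). The arrays differed for both, with -0.82 on replicate 1 and -0.32 on replicate 2 for Tgm5, a dim probe at intensities of 27.5 to 67.4, and with 0.32 and 0.96 for Tgm2. Ecm1, a retinoic acid-responsive gene of the ureteric mesenchyme, changed by -0.34 on replicate 1 and 0.04 on replicate 2 (mean -0.15, adjusted p = 0.775). A dimmer Ecm1 probe was lower on both arrays, by -0.16 and -0.15, and did not pass either (limma, adjusted p = 0.682 over all probes).

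The list of vitamin A uptake, storage and transport had 8 genes tested with a median of -0.09, and that of retinol and retinaldehyde conversion had 13 with a median of -0.04. Rdh10, which performs the rate-limiting oxidation of retinol in the embryo, was at 0.01 (adjusted p = 0.992), and Dhrs3, which reduces retinaldehyde back to retinol, at 0.03 (adjusted p = 0.975). The carrier Fabp5 was at 0.21 (adjusted p = 0.435), and Cyp26c1 was not well above background.

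Of 11 nuclear receptors and co-regulators none passed in this fit, with a median of -0.04. Rarg, the gamma receptor, was the lowest at -0.35, and its change was close to equal on the arrays, -0.35 on replicate 1 and -0.35 on replicate 2. It did not pass (66.7% to 92.3% of control, adjusted p = 0.173). Rara was at -0.02 (adjusted p = 0.987), Rxra at -0.20 (adjusted p = 0.626) and Rxrb at -0.06 (adjusted p = 0.935).

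**Figure D4:**
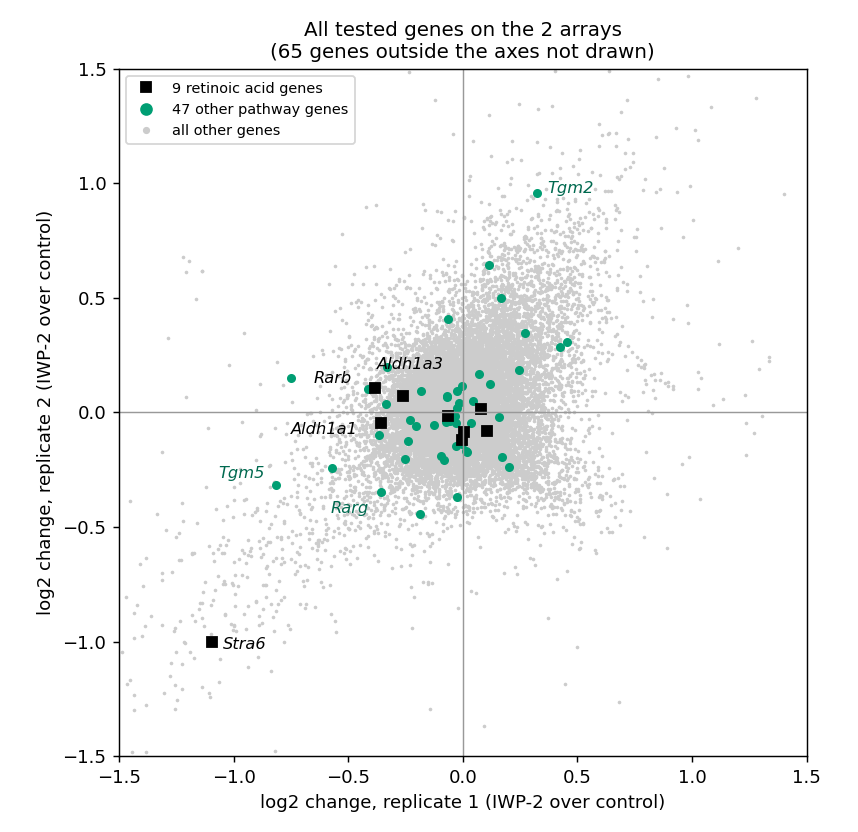
Log2 change on replicate 1 against replicate 2 for all tested genes (grey), the 47 other pathway genes (green circles) and the 9 members (black squares); 65 genes fall outside the axes. Stra6 lies at -1.09 and -1.003, away from the other members and from all pathway genes.

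For Rxrg, which encodes the gamma partner receptor, the result depended on the probe. In the fit of every probe, 1 of 63 probes of pathway genes passed, against 1.23% of all probes lower. It was the dimmer of 2 Rxrg probes. Its intensity fell from 119 in the control to 58.7 in the treated pool on replicate 1 and from 91.2 to 45.5 on replicate 2, so both treated values were below both control values. The mean log2 change was -0.83 ± 0.015 (SD, n = 2; 95% interval -1.07 to -0.59; limma adjusted p = 0.00988 over all probes). This mean equals 56.2% of control, while the processed intensity was at 49.3% on replicate 1 and 49.9% on replicate 2. The offset of 50 draws the change of a dim probe toward 0. The brighter probe, which stands for Rxrg in the fit with 1 probe per gene, was at 11865 in the control and 13991 in the treated pool on replicate 1, and at 6122 and 5040 on replicate 2. It was brighter in the red dye on both arrays and gave a mean of -0.02 (adjusted p = 0.992). Both probes are annotated to transcript variant 1 of Rxrg and lie next to each other, and their last 30 bases are shown since they disagree, with the polyadenylation signal letters in capitals:
Rxrg dimmer probe, chr1:169569654-169569683 (mm9, plus strand): gccaagcctctgtacatataattggtttaa
Rxrg brighter probe, chr1:169569526-169569555 (mm9, plus strand): tgcttgtAATAAAgacaacctttctacaca

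**Figure D5:**
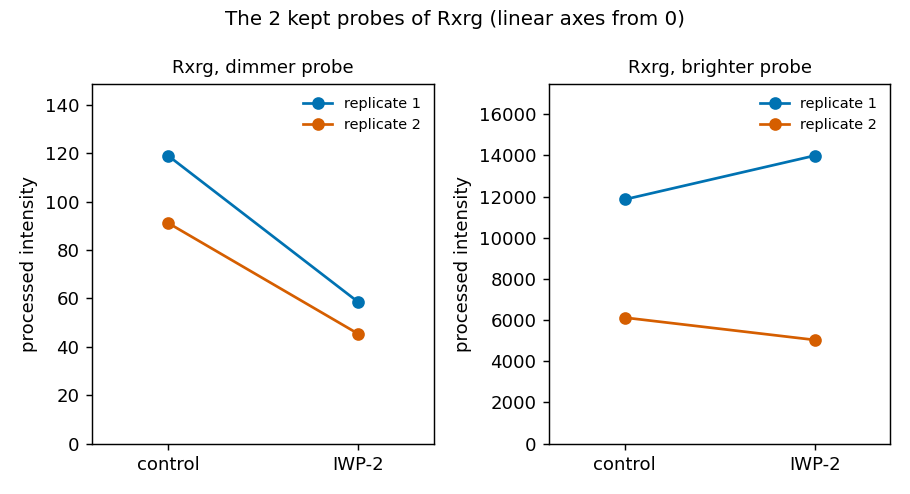
Processed intensity of the 2 kept Rxrg probes in control and IWP-2-treated ureters on linear axes from 0, with a line for each array. The dimmer probe falls on both arrays, while the brighter probe rises from 11865 to 13991 on replicate 1 and falls from 6122 to 5040 on replicate 2.

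The call of the dimmer Rxrg probe held under 7 of 11 alternatives, and the highest adjusted p was 0.419, on the processed signals.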

How the data were processed

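Total RNA of E11.5 ureter explants was profiled on 2 two-colour Agilent arrays. The deposited scanner files hold intensities per spot, made by the authors with Agilent Feature Extraction, for which the submitters' processing notes name version 10.7.3.1 and the file headers version 12.2.0.7. The series table by the authors holds signed fold changes, rounded to 1 decimal. On replicates 1 and 2, respectively, 96.5% and 97.4% of these were within 0.1 of the ratio of the deposited processed signals, so its direction is IWP-2 over control. Its median was 1 in each column and it served as an alternative.

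Mean spot intensities were background-corrected (normexp, offset 50) and normalized within arrays by loess with control spots at weight 0, the sign of replicate 2 was turned for the dye swap, outlier spots (4.51% and 3.30%) were dropped and the 4 spots of a probe averaged. A probe was kept if over 0.5 of its spots were well above background in the treated or in the control channel of both arrays, and the brightest kept probe stood for a gene. limma 3.58.1 in R 4.3.3 (lmFit, eBayes, two-sided, Benjamini-Hochberg over all genes or probes, threshold 0.05) tested the mean change with 1 residual and 5.52 prior degrees of freedom. With these degrees of freedom the p-values rest mostly on a spread pooled over all genes and less on that of the single gene. Either spread is only that between these pools and the 2 arrays, which were hybridised on the same slide. The ratios of 2 arrays gave no measure of similar patterns, and exact permutation cannot reach the threshold. The pipeline was tested on simulated spots with known changes.

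Every member probe is named. From 5 pathway lists, genes past the threshold and Rara, Rarg, Rxra, Rxrb, Rxrg, Rdh10, Dhrs3, Cyp26c1, Fabp5 and Ecm1 are named, and from 10 marker lists the genes past the threshold. A further gene of this rule is not reported here. Members and lists were chosen with earlier results of these data known. Of 61 pathway names 58 were on the array. Probe positions are those of mm9 in the files, and promoter windows and gene order are from RefSeq (GRCm38.p6).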

Additional observations from a re-analysis of the deposited data

How the results depend on the processing

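The change of Stra6 kept its direction under all alternatives, and with either array left out its value ranged from -1.09 to -1.003, a value with no test. Of the other members, none of which passed the test, Crabp2 changed sign, to -0.0010, on the processed signals. With replicate 1 left out the sign also turned for Rarb (0.11), Aldh1a3 (0.07) and Crabp2 (-0.08), and with replicate 2 left out for Crabp1 (0.0049). Of the other named pathway genes, none of which passed the test, the sign turned for Dhrs3 (-0.069 with the deposited series table), Rara (0.010 with the mean over its kept probes), Rdh10 (-0.027 with median centring) and the brighter Rxrg probe (0.055 with median centring and 0.058 with the series table). With replicate 2 left out it also turned for Dhrs3 (-0.027), Rdh10 (-0.016) and the brighter Rxrg probe (0.20), and with replicate 1 left out for Ecm1 (0.037). The cause was not tested. Members lower numbered 0 in place of 1 on the processed signals, with median centring and with separate channels and a dye term, and member probes lower numbered 0 on the processed signals and with the dye term. No member was higher under any alternative of the test. Pathway genes numbered 4 lower and 3 higher with the series table, in which 19.4% of tested genes had equal values on both arrays and thus no spread, and 0 under the others.

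Over all genes, 0 were lower and 0 higher on the processed signals with limma (1108 and 1356 at an unadjusted p under 0.05) and with the dye term (882 and 1361). The counts were 36 and 7 with median centring, 98 and 21 without the filter on dim probes, 1322 and 1038 with the series table, 55 and 9 at a false discovery rate of 0.01, and 111 and 16 with separate channels without a dye term, an alternative added after seeing the data. Genes higher numbered 74 without background correction, 224 with the mean over probes, 226 with a trend and robust prior and 224 with a trend prior. Separate-channel fits took the correlation within spots from the design without the dye term, since the dye term leaves no residual degree of freedom for it. With the filter on fold change, members lower numbered 0 at a fold of 3, and 1 in every other setting tried, including either array alone. The test is itself paired, since each ratio sets a treated against a control pool of the same array, and no further block was fitted.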
